A study of Mus musculus with 12 samples.

Results

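The inflammatory CC chemokines are small secreted proteins that draw monocytes, macrophages, T cells and NK cells to inflamed tissue. A set of 9 of them, Ccl2, Ccl3, Ccl4, Ccl5, Ccl6, Ccl7, Ccl8, Ccl9 and Ccl12, was taken by symbol from the 56832 gene entries of a count table of mouse bone marrow macrophages. All 9 passed the filter on low counts and were tested. RNA sequencing covered 12 libraries of macrophages sorted as CD45+, F4/80+, Ly6g- and Ly6c-. There were 3 libraries in each of 4 groups: male leukemic, female leukemic, male non-leukemic and female non-leukemic. Leukemic mice had received a transplant of bcCML cells, a blast-crisis chronic myeloid leukemia model, and their macrophages were taken at day 11, late in the disease. Non-leukemic mice were healthy. Strain, age, any conditioning before transplantation and the number of animals behind a library are not given in the sources used here, so p-values measure the spread between libraries, which may be technical. The series title places the work in a study of lactate and macrophage polarization in leukemic marrow.

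CC chemokines act through seven-transmembrane receptors on the cells they attract. CCL3, CCL4 (MIP-1α and MIP-1β) and CCL5 (RANTES) act on monocytes and T cells, and CCL3 and CCL5 bind CCR1. CCL2, CCL7, CCL8 and CCL12 belong to the monocyte chemoattractant group. Of these, CCL2, CCL7 and CCL12 bind CCR2, through which monocytes leave the marrow, while mouse CCL8 acts on CCR8. CCL6 and CCL9 are rodent chemokines that bind CCR1 and are made by myeloid cells. Macrophages are a known source of most of these ligands, and activated T and NK cells are a known source of CCL3, CCL4 and CCL5.

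Total counts were 22437689 to 30014855 in leukemic libraries and 16911827 to 26611831 in non-leukemic libraries. A library value of 0 counts would allow up to 3 counts, or 0.1 to 0.177 CPM (a count divided by its library total and rescaled) over the 12 libraries, for counting error only. Female leukemic replicate 1 held counts for 17891 genes, and each other library for 19521 to 21247. Of the genes of the sorted antigens, Ptprc (CD45) had 259 to 811 CPM in leukemic libraries and 305 to 425 CPM in non-leukemic libraries. Adgre1 (F4/80) had 28.4 to 60.6 CPM in leukemic libraries and 75.9 to 258 CPM in non-leukemic libraries, where male non-leukemic replicate 3 was highest. Antigens that the gate selects against were not absent as transcripts. Ly6g had 4.76 to 24.2 CPM in leukemic libraries and 31.1 to 77.9 CPM in non-leukemic libraries. For Ly6c2 the ranges were 121 to 410 CPM in leukemic libraries and 173 to 450 CPM in non-leukemic libraries, while Ly6c1 stayed at or below 1.55 CPM in each library. Csf1r, the macrophage growth factor receptor, had 159.5 to 329 CPM in leukemic libraries and 290 to 1107 CPM in non-leukemic libraries. Genes of neutrophils and of T and NK cells were present as well, and their levels are given with the chemokines below.

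On mouse chromosome 11 the genes lie in a pair of blocks. In RefSeq the first runs Ccl2, Ccl7, Ccl11, Ccl12, Ccl8 and Ccl1, and the second runs Ccl5, Ccl9, Ccl6, Ccl3 and Ccl4. RefSeq promoter windows (build GRCm38.p6, from 250 bases before to 50 after the annotated start) were matched for 5 members. The windows of 4 are shown, because they pair a gene that rose in leukemic libraries (Ccl3 or Ccl8) with a gene of the same block whose difference did not pass (Ccl9 or Ccl12). Each is printed 5′ to 3′ on the strand of its gene, with motif matches in capitals.
Ccl3 (chr11:83649329-83649628, minus strand): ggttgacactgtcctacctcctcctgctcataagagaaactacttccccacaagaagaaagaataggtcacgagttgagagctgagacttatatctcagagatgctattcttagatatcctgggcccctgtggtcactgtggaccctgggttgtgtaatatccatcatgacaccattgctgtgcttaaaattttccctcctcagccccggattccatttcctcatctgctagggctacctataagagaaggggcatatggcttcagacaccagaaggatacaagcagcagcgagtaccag
Ccl9 (chr11:83578587-83578886, minus strand): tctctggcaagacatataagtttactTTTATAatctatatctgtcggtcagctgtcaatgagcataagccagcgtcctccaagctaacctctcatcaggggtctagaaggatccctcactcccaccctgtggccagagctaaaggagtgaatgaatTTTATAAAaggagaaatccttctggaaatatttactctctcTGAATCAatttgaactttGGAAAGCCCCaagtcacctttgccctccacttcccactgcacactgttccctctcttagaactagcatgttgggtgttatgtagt
Ccl8 (chr11:82114935-82115234, plus strand): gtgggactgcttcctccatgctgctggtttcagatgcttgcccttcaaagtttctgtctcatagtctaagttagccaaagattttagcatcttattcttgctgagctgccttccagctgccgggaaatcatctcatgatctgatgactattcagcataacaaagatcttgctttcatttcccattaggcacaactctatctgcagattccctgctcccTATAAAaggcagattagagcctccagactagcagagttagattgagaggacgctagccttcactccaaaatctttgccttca
Ccl12 (chr11:82101595-82101894, plus strand): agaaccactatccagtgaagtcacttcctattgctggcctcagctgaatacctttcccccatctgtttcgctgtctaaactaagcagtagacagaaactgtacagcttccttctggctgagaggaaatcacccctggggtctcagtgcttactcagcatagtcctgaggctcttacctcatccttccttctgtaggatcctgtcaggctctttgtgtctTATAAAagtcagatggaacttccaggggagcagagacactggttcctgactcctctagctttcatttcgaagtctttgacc

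The capitals mark matches on either strand to 5 motifs: the NF-κB site (GGG and CC with any 5 bases between them), the AP-1 site TGANTCA, the interferon-stimulated element (GAAA on both sides of any 2 bases), the gamma-activated site TTCNNNGAA and the TATA box TATAAA. Counting the base before the annotated start as -1, Ccl8 held a TATAAA with its first base at -32 and Ccl12 held one at -31. Ccl9 held the NF-κB match GGAAAGCCCC at -35, the AP-1 match TGAATCA at -53, and TATA matches at -224, -94 and -92, of which the last pair overlap. Ccl3 and Ccl6 had no match in this window. Of 32851 RefSeq promoters of the same length, 50.8% held the NF-κB letters, 7.81% the AP-1 letters, 3.44% the interferon element, 8.3% the gamma-activated site and 13.6% the TATA box. These are matches of letters only, and no binding was measured.

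The first comparison, leukemic against non-leukemic, asked which of these chemokines differ in late leukemia. Ccl3, Ccl4, Ccl5 and Ccl8 rose in leukemic libraries, 0 members fell, and the other 5 did not pass. Among the 15758 genes tested, 8.71% were called higher in leukemic libraries (1373 genes) and 17.9% were called in either direction, at an adjusted p under 0.05. The median log2 fold change was 1.09 over the 9 members and -0.01 over all genes tested. In Ccl3, Ccl4 and Ccl8 all 6 leukemic libraries were above all 6 non-leukemic libraries, an arrangement seen in 5.05% of the genes tested. Summed over the 9 genes, leukemic libraries held 619.5 to 1399 CPM with a median of 814.3, and non-leukemic libraries held 341.1 to 636.5 CPM with a median of 404.2. The sums overlapped, because female leukemic replicate 3 (619.5 CPM) was below male non-leukemic replicate 3 (636.5 CPM). In these bulk samples, fewer cells of a type and less RNA per cell cannot be told apart.

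**Figure D1:**
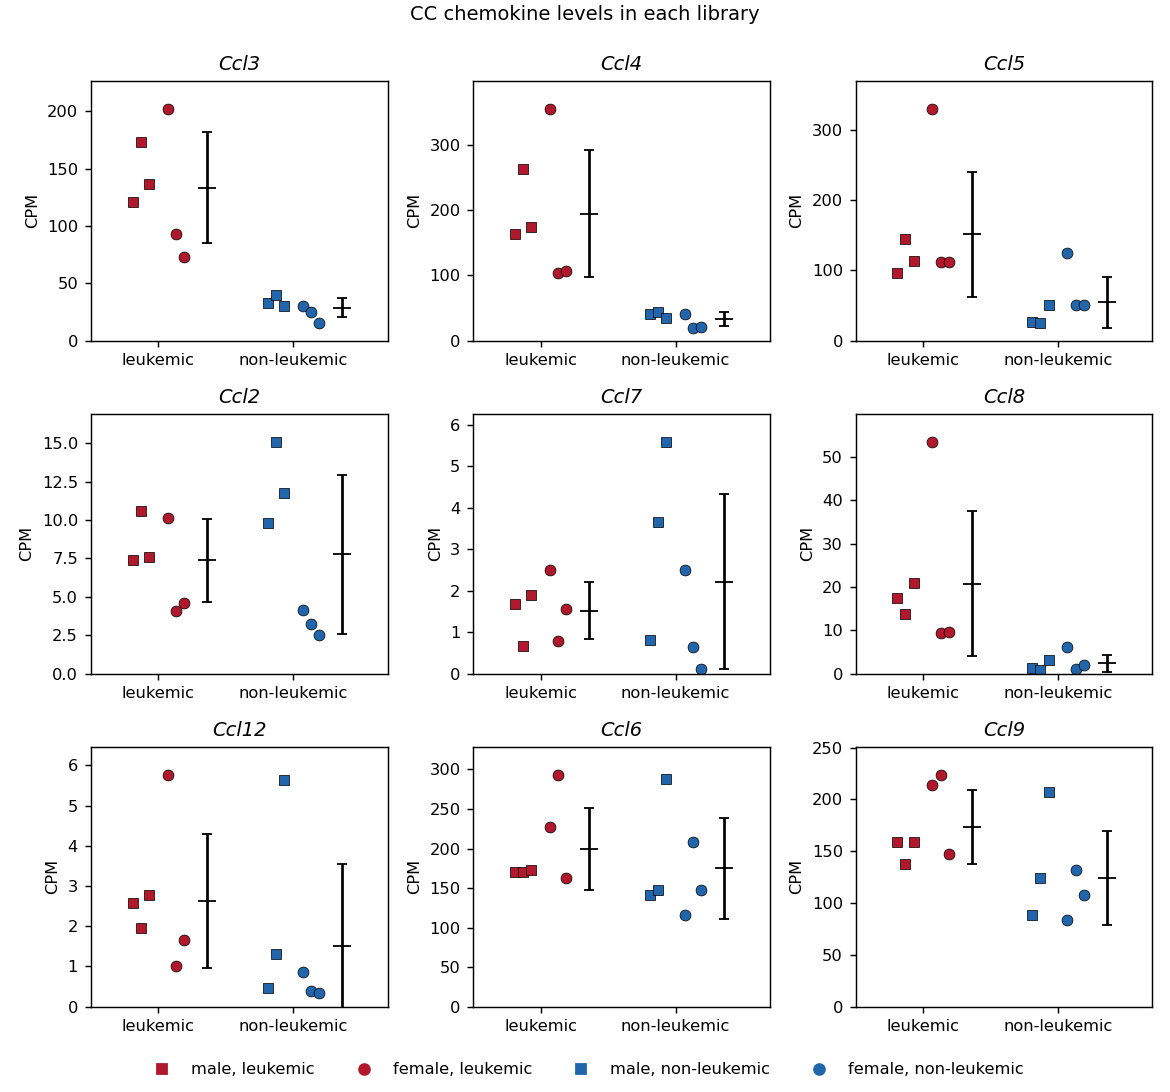
CPM of each member in each library, leukemic left of non-leukemic, with points by sex and the mean ± SD of the 6 libraries of a condition beside them (bars stop at 0). Ccl3, Ccl4 and Ccl8 show no overlap between conditions, and female leukemic replicate 1 is the highest leukemic point for Ccl5 (329.9 CPM), Ccl8 (53.4 CPM) and Ccl12 (5.76 CPM).

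Ccl3, a CCR1 ligand that recruits monocytes and T cells, had 121, 174 and 136 CPM in male leukemic libraries 1 to 3 and 202, 93.3 and 73.0 CPM in female leukemic libraries 1 to 3. Male non-leukemic libraries had 32.5, 39.7 and 30.0 CPM, and female non-leukemic libraries had 30.1, 24.6 and 15.4 CPM. The lowest leukemic library lay above the highest non-leukemic one. Ccl3 averaged 133 ± 48.5 CPM in leukemic libraries and 28.7 ± 8.17 CPM in non-leukemic libraries (SD, n = 6 each). The log2 fold change was 2.188 ± 0.28 (SE), with a 95% interval of 1.58 to 2.80 and an adjusted p of 0.000202.

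Ccl4, a T cell and monocyte attractant and the gene next to Ccl3, had 163, 262 and 174 CPM in male leukemic libraries and 355, 104 and 107 CPM in female leukemic libraries. It had 40.5, 43.1 and 34.3 CPM in male non-leukemic libraries and 40.7, 19.2 and 20.2 CPM in female non-leukemic libraries. The conditions were again apart, and female leukemic replicate 1 was highest. Ccl4 averaged 194 ± 97.5 CPM in leukemic libraries and 33.0 ± 10.7 CPM in non-leukemic libraries (SD, n = 6 each). Its log2 fold change was 2.54 ± 0.36 (SE), with an interval of 1.76 to 3.33 and an adjusted p of 0.00042.

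Ccl3 and Ccl4 had similar profiles. Over the 12 libraries the root mean square difference of their log2 CPM, each taken relative to its own mean, was 0.28, the second smallest of the 36 pairs of members. Per kilobase of transcript, the level of Ccl4 was 1.29 to 2.04 times that of Ccl3 in leukemic libraries and 0.906 to 1.57 times in non-leukemic libraries. These ratios overlapped between conditions.

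Ccl5 attracts T cells, monocytes and eosinophils, in part through CCR1 and CCR3. Male leukemic libraries had 96.0, 144.5 and 113 CPM and female leukemic libraries 329.9, 113 and 111 CPM. Male non-leukemic libraries had 26.0, 24.9 and 50.4 CPM and female non-leukemic libraries 124, 50.9 and 50.6 CPM. The conditions overlapped through 1 library, since 2 of the 6 leukemic libraries were above female non-leukemic replicate 1. Ccl5 averaged 151 ± 89.0 CPM in leukemic libraries and 54.5 ± 36.3 CPM in non-leukemic libraries (SD, n = 6 each). The log2 fold change was 1.49 ± 0.36 (SE), with an interval of 0.71 to 2.28 and an adjusted p of 0.0124. Tested against a minimum change of 1.5-fold, Ccl5 did not pass (adjusted p = 0.0650), while Ccl3, Ccl4 and Ccl8 did.

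Of the monocyte chemoattractant group, only Ccl8 passed. Ccl8, a ligand of CCR8 in the mouse, had 17.5, 13.9 and 20.96 CPM in male leukemic libraries and 53.4, 9.33 and 9.63 CPM in female leukemic libraries. It had 1.36, 0.887 and 3.05 CPM in male non-leukemic libraries and 6.03, 1.10 and 1.99 CPM in female non-leukemic libraries. The conditions did not overlap, and replicate 1 was the highest library in each female group. Ccl8 averaged 20.8 ± 16.6 CPM in leukemic libraries and 2.40 ± 1.94 CPM in non-leukemic libraries (SD, n = 6 each), and 14.3 ± 5.03 CPM over the 5 leukemic libraries without female leukemic replicate 1. Its log2 fold change of 3.10 ± 0.58 (SE) had the highest estimate of the 9 members, with an interval of 1.85 to 4.34 and an adjusted p of 0.00256.

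The calls of Ccl3, Ccl4, Ccl5 and Ccl8 held in each of the 12 fits that left out 1 library. Without female leukemic replicate 1 the log2 fold changes were 1.88 for Ccl3, 2.09 for Ccl4, 1.16 for Ccl5 (adjusted p = 0.0230) and 2.45 for Ccl8. Without that library and male non-leukemic replicate 3 together they were 1.85, 2.06, 1.32 and 2.66 in the same order of genes, and all 4 passed.

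Ccl2, the main CCR2 ligand, had 4.04 to 10.6 CPM with a median of 7.50 in leukemic libraries and 2.52 to 15.1 CPM with a median of 6.998 in non-leukemic libraries. The leukemic range lay inside the non-leukemic one. The log2 fold change was 0.14 ± 0.37 (SE), with an interval of -0.67 to 0.95 and an adjusted p of 0.852. Its sign was not stable, being negative with limma-voom, without the sex term, and without female leukemic replicate 1 or female non-leukemic replicate 3. Non-leukemic libraries differed by sex in this gene, with 9.83, 15.1 and 11.7 CPM in males and 4.16, 3.24 and 2.52 CPM in females, a split that was not tested.

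Ccl7, a further CCR2 ligand, was low, at 0.674 to 2.50 CPM with a median of 1.62 in leukemic libraries and 0.113 to 5.59 CPM with a median of 1.65 in non-leukemic libraries. The non-leukemic libraries were the more spread out, with 3 counts in female non-leukemic replicate 3 and 130 counts in male non-leukemic replicate 3. The log2 fold change was -0.41 ± 0.75 (SE), and its interval of -2.04 to 1.22 holds sizeable changes in either direction (adjusted p = 0.770).

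Ccl12, the mouse chemokine MCP-5, had 1.01 to 5.76 CPM with a median of 2.27 in leukemic libraries and 0.338 to 5.63 CPM with a median of 0.657 in non-leukemic libraries. Male non-leukemic replicate 3 had 5.63 CPM, and the other non-leukemic libraries had 0.338 to 1.30 CPM. The conditions overlapped without that library too, as female leukemic replicate 2 (1.01 CPM) was below male non-leukemic replicate 2 (1.30 CPM). The log2 fold change was 1.09 ± 0.78 (SE), with an interval of -0.61 to 2.78 and an adjusted p of 0.394. Without male non-leukemic replicate 3 it was 1.97 and passed (adjusted p = 0.0330). It also passed without that library and female leukemic replicate 1 together, at 1.34 (adjusted p = 0.0433).

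Ccl6 and Ccl9, the rodent CCR1 ligands, were abundant in both conditions. Ccl6 had 163 to 293 CPM with a median of 171 in leukemic libraries and 116 to 288 CPM with a median of 147 in non-leukemic libraries. Its log2 fold change was 0.10 ± 0.25 (SE), with an interval of -0.45 to 0.64 and an adjusted p of 0.852. The male leukemic libraries lay within 170.3 to 172 CPM, against 141 to 288 CPM in male non-leukemic libraries.

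Ccl9 had 138 to 224 CPM with a median of 159 in leukemic libraries and 83.3 to 207.5 CPM with a median of 116 in non-leukemic libraries. The highest non-leukemic value, 207.5 CPM, was again that of male non-leukemic replicate 3. The log2 fold change was 0.40 ± 0.25 (SE), with an interval of -0.13 to 0.94 and an adjusted p of 0.309. Without male non-leukemic replicate 3 it was 0.66 and passed (adjusted p = 0.0205), as it did without that library and female leukemic replicate 1 together (0.58, adjusted p = 0.0163). Those omissions brought the members called higher to 6. The share of all genes called in either direction rose as well, from 17.9% to 19.6% without male non-leukemic replicate 3 and to 28.9% without both libraries.

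Of all 36 pairs of members, Ccl6 and Ccl9 had the smallest root mean square difference of relative log2 CPM, 0.20. The level of Ccl9 per kilobase was 0.366 to 0.450 times that of Ccl6 in leukemic libraries and 0.302 to 0.403 times in non-leukemic libraries. The third closest pair, Ccl4 and Ccl8, was at 0.80. In Ccl9, 59 of 2957 windows of 50 bases of the transcript also occur in transcripts of other genes, so a small part of its reads may be hard to assign, while the other 8 members had 0 shared windows.

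**Figure D2:**
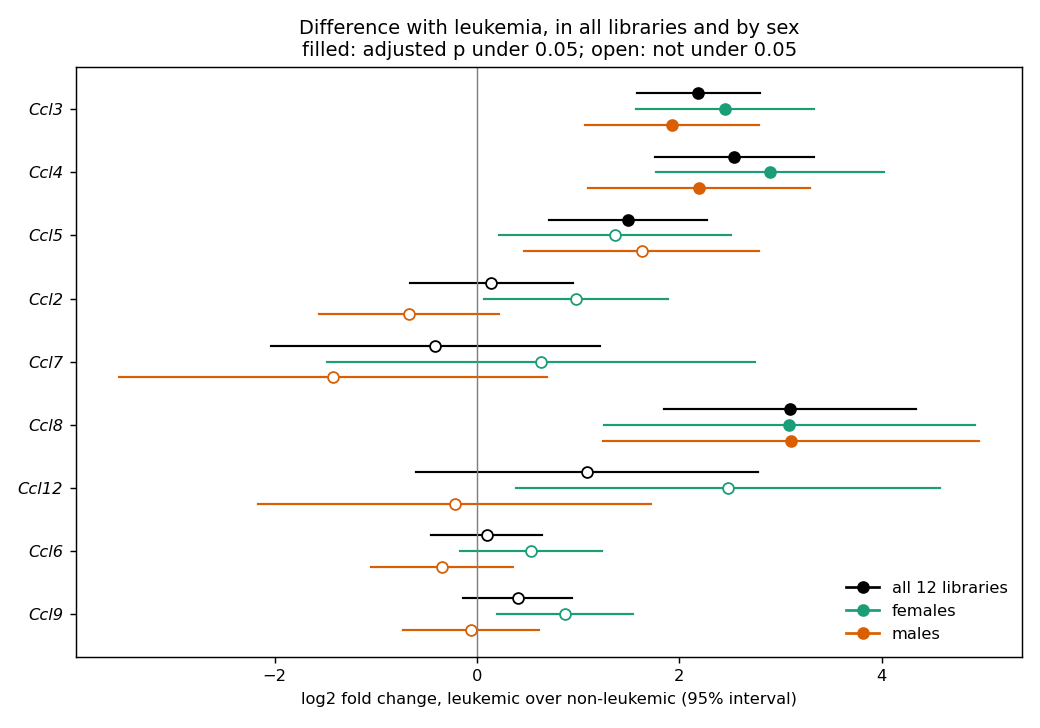
Log2 fold change, leukemic over non-leukemic, with its 95% interval for each member over all 12 libraries (black), in females (green) and in males (orange), with filled points where the adjusted p was under 0.05. Intervals of Ccl3, Ccl4, Ccl5 and Ccl8 over all libraries lie above 0, from 0.71 for the lower end of Ccl5 to 4.34 for the upper end of Ccl8.

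The order of the members differed between conditions. CPM was divided by the length of the longest transcript of each gene in the consensus coding set (CCDS). These transcripts run from 511 bases (Ccl8) to 3006 bases (Ccl9), and the use of other transcripts was not measured. In leukemic libraries the medians per kilobase were 255 CPM for Ccl4, 212 for Ccl5, 168 for Ccl3, 119 for Ccl6, 52.8 for Ccl9, 30.7 for Ccl8, 9.22 for Ccl2, 4.23 for Ccl12 and 2.02 for Ccl7. In non-leukemic libraries they were 102 CPM for Ccl6, 94.9 for Ccl5, 56.6 for Ccl4, 39.2 for Ccl3, 38.6 for Ccl9, 8.61 for Ccl2, 3.28 for Ccl8, 2.06 for Ccl7 and 1.22 for Ccl12. Most neighbours in these orders had overlapping ranges. The exceptions were Ccl6 above Ccl9 and Ccl8 above Ccl2 in leukemic libraries, and Ccl9 above Ccl2 in non-leukemic libraries. The leukemic exceptions depend on the lengths used. In CPM the leukemic ranges overlapped for Ccl6 (163 to 293) and Ccl9 (138 to 224), and for Ccl8 (9.33 to 53.4) and Ccl2 (4.04 to 10.6).

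Ratios were also taken within a library. The level of Ccl3 per kilobase was 0.598 to 1.92 times that of Ccl6 in leukemic libraries, with a median of 1.41, and 0.195 to 0.506 times in non-leukemic libraries, with a median of 0.328. These ranges were apart, and Ccl3 per kilobase was above Ccl6 in 4 of the 6 leukemic libraries and 0 of the 6 non-leukemic libraries. Which of these genes is higher depends on the lengths used. In CPM, Ccl3 was above Ccl6 only in male leukemic replicate 2 (173.6 against 170.4 CPM). Ccl8 per kilobase was 6.13 to 9.74 times the level of Ccl12 in leukemic libraries and 0.570 to 7.36 times in non-leukemic libraries, which overlapped. As shares of the summed CPM of the 9 genes, Ccl4 held 12.3% to 28.6% in leukemic libraries and 4.36% to 11.9% in non-leukemic libraries. Ccl6 held 16.2% to 34.8% in leukemic libraries and 28.4% to 47.3% in non-leukemic libraries.

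**Figure D3:**
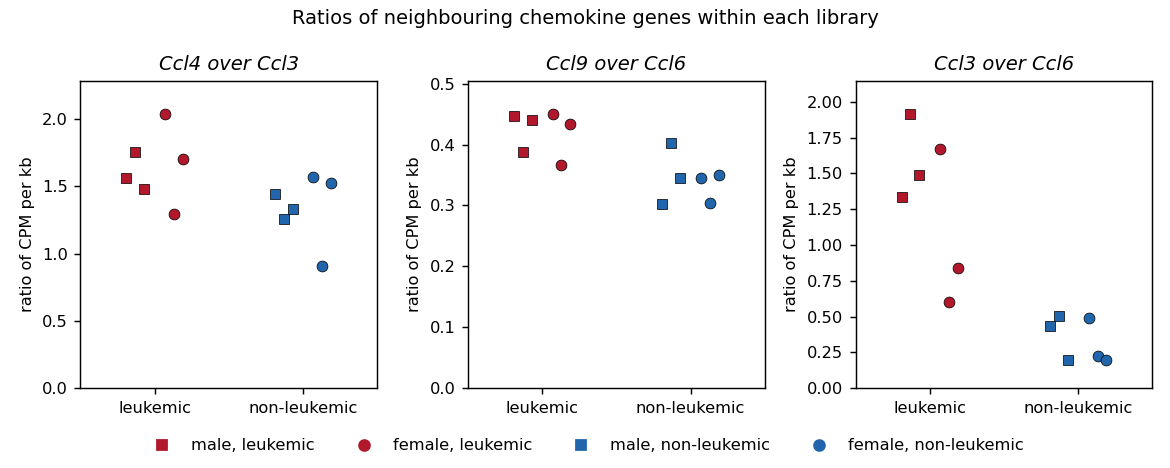
Ratios of levels per kilobase of transcript within each library for Ccl4 over Ccl3, Ccl9 over Ccl6 and Ccl3 over Ccl6, leukemic left of non-leukemic. The first and second ratios overlap between conditions, while Ccl3 over Ccl6 is 0.598 to 1.92 in leukemic libraries and 0.195 to 0.506 in non-leukemic libraries.

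The comparison was then made within each sex. In females, Ccl3, Ccl4 and Ccl8 rose, with log2 fold changes of 2.45 ± 0.40 (SE, adjusted p = 0.00410), 2.89 ± 0.52 (adjusted p = 0.00608) and 3.09 ± 0.84 (adjusted p = 0.0431). Of all genes tested, 3.84% were called higher in leukemic females (605 genes). In males the same 3 members rose, by 1.93 ± 0.39 (adjusted p = 0.0119), 2.20 ± 0.50 (adjusted p = 0.0214) and 3.10 ± 0.85 (adjusted p = 0.0480), where 3.34% of genes were called higher (526 genes). Ccl5 had a log2 fold change of 1.36 ± 0.53 in females (adjusted p = 0.137) and 1.63 ± 0.53 in males (adjusted p = 0.0918).

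These calls within a sex rest on 3 libraries per group, and several depended on 1 library. For Ccl8 in females, leaving out 8 of the 12 libraries in turn ended the call, among them female leukemic replicate 1 (log2 fold change 1.60, adjusted p = 0.148). For Ccl8 in males, 7 such omissions ended it, with adjusted p of 0.0547 to 0.158. For Ccl4 in males, leaving out male leukemic replicate 2 or 3 or any male non-leukemic library ended the call (adjusted p of 0.0530 to 0.0844). For Ccl3 in males, leaving out male leukemic replicate 2 did so (adjusted p = 0.0521). Ccl5 in males passed without female leukemic replicate 1 (adjusted p = 0.0212), and Ccl9 in females passed without male non-leukemic replicate 1 or 3 (adjusted p of 0.0499 and 0.0367).

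The difference between the sexes was tested as an interaction. By edgeR 0 members and 0 of 15758 genes passed (0%), with 925 genes and 1 member at an unadjusted p under 0.05, while DESeq2 called 23 genes and limma-voom 0. That member was Ccl2, whose log2 fold change was 0.97 ± 0.42 in females and -0.67 ± 0.41 in males. The female effect minus the male effect was 1.64 ± 0.58 (SE, unadjusted p = 0.0157, adjusted p = 0.819). Ccl12 had log2 fold changes of 2.48 ± 0.96 in females (adjusted p = 0.137) and -0.22 ± 0.89 in males (adjusted p = 0.930). The male value was 1.38 without male non-leukemic replicate 3, and 0.52 with limma-voom.

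Among the genes tested, the profiles most like that of Ccl3 over the 12 libraries were those of Ccl4, Car5b (root mean square difference 0.37) and Il6 (0.41). Il6 encodes an inflammatory cytokine, and Car5b a mitochondrial carbonic anhydrase. The profiles most like that of Ccl4 were Ccl3, Icos (0.37), a costimulatory receptor of T cells, and Car5b (0.41). Nearest to Ccl5 were Ctsw (0.34), Klrc1 (0.35) and Cd7 (0.37), genes known from T and NK cells. The measure includes the difference between conditions, so genes with a similar log2 fold change lie near each other. That change was 1.44 for Ctsw, 1.52 for Klrc1 and 1.69 for Cd7, against 1.49 for Ccl5. The cells behind these transcripts were not tested. Nearest to Ccl8 were Trav12-2 (0.52), a T cell receptor segment, Tgtp1 (0.59), an interferon-induced GTPase, and Tnfrsf9 (0.61), a costimulatory receptor of activated lymphocytes. Reads of T cell receptor segments and of Tgtp1 may be shared with near-identical copies. Trav12-2 itself rose by 3.40 ± 0.99 on the log2 scale (adjusted p = 0.0308), a call that ended in 8 of the 12 fits that left out a library (adjusted p of 0.0530 to 0.0674).

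Receptors of CC chemokines changed in both directions. Of 14 receptor genes, 12 were tested, 3 rose and 3 fell, a called share of 50%, against 17.9% over all genes. Their median was 0.31 on the log2 scale. Ccr8, the receptor of mouse CCL8, had 2.13 to 14.6 CPM in leukemic libraries and 0.601 to 1.68 CPM in non-leukemic libraries, a change of 3.15 ± 0.40 (adjusted p = 0.000192). Ccr7, which guides cells to lymph nodes, rose by 0.86 ± 0.18 (adjusted p = 0.00612).

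Ccr4, a receptor of CCL17 and CCL22, was low, with 157 counts in leukemic libraries and 18 in non-leukemic libraries together. It rose by 2.53 ± 0.81 (adjusted p = 0.0468), a call that ended in 10 of the 12 fits that left out a library (adjusted p of 0.0542 to 0.108). Ackr1, the Duffy antigen and an atypical receptor known from red cell precursors, fell by 4.44 ± 0.34 (adjusted p = 4.37e-06). Ccr3, the eosinophil receptor, fell by 2.22 ± 0.27 (adjusted p = 0.000152). Ccr9 fell by 0.90 ± 0.27 (adjusted p = 0.0342), a call that ended in 9 of the 12 such fits (adjusted p of 0.0517 to 0.0937).

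The genes of the receptors CCR1 and CCR2 did not pass over all 12 libraries. Ccr1, which binds CCL3, CCL5, CCL6 and CCL9, had 42.5 to 101 CPM in leukemic libraries and 25.6 to 89.6 CPM in non-leukemic libraries, a log2 fold change of 0.24 ± 0.36 (adjusted p = 0.722). That value pools opposite signs: in females Ccr1 rose by 1.22 ± 0.32 (adjusted p = 0.0373), and in males the change was -0.74 ± 0.32 (adjusted p = 0.198). The female effect minus the male effect was 1.96 ± 0.45, with an unadjusted p of 0.000975 and an adjusted p of 0.815 by edgeR, and it passed with DESeq2 (adjusted p = 0.0316). The female call ended in 7 of the 12 fits that left out a library (adjusted p of 0.0511 to 0.139), and the male change passed without male non-leukemic replicate 1 (-1.02, adjusted p = 0.0462). For Ccr2, the receptor of CCL2, CCL7 and CCL12, it was -0.58 (adjusted p = 0.0925). Ccrl2, Ccr6, Ccr10 and Ackr4 did not pass either, and Ackr2 and Ccr1l1 were too low to test.

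CC chemokines outside the inflammatory group also rose: of 11 genes, 7 were tested, 4 rose, 0 fell, and the median was 1.85. The called share was 57.1%, against 17.9% over all genes. Ccl24, an eosinophil attractant, had 5.58 to 96.6 CPM in leukemic libraries and 0.215 to 1.05 CPM in non-leukemic libraries, a log2 fold change of 6.23 ± 0.84. Ccl1, a second ligand of CCR8, had 1.61 to 7.53 CPM in leukemic libraries and 0 to 0.549 CPM in non-leukemic libraries, a log2 fold change of 4.37 ± 0.73 (adjusted p = 0.00128). Ccl17 rose by 3.40 ± 0.61 (adjusted p = 0.00198) and Ccl22, likewise a CCR4 ligand, by 1.84 ± 0.43 (adjusted p = 0.0105). In these 4 genes the conditions did not overlap. Ccl25 and Ccl27a did not pass, nor did Ccl28, which had 0 counts in leukemic libraries and 37 in non-leukemic libraries (adjusted p = 0.0723). Ccl11, Ccl19, Ccl20 and Ccl21a had at most 5 counts per condition and were not tested.

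**Figure D4:**
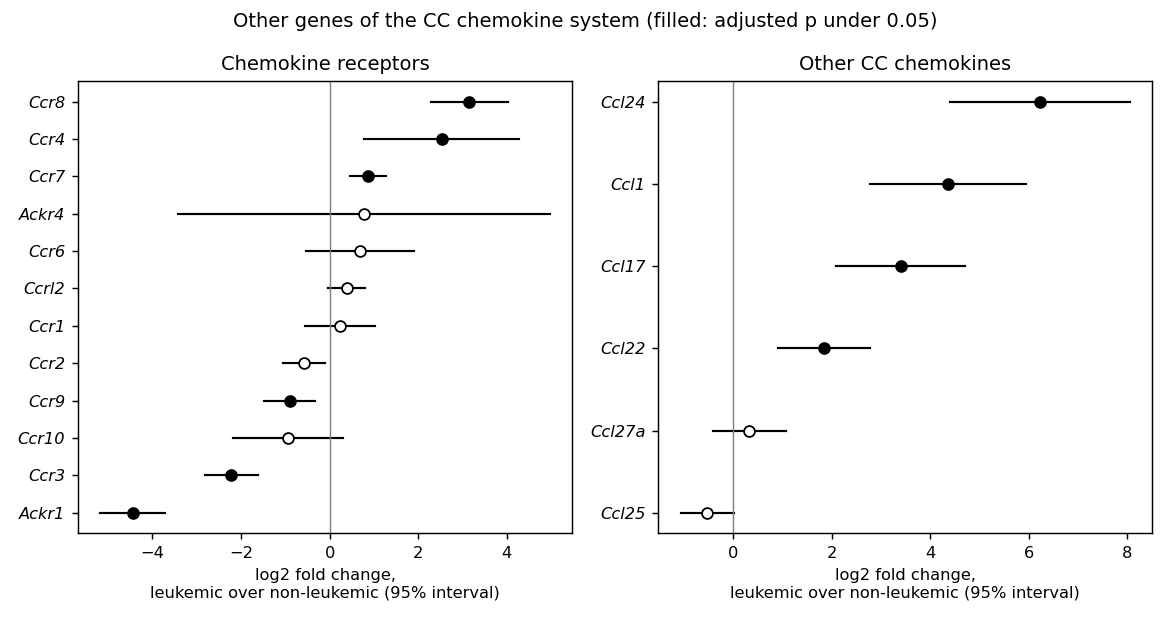
Log2 fold change, leukemic over non-leukemic, with its 95% interval for the tested CC chemokine receptors and the other CC chemokines, with filled points where the adjusted p was under 0.05. Ccr8 (3.15) and Ccr7 (0.86) lie above 0 and Ackr1 (-4.44) and Ccr3 (-2.22) below it; Ccl28, which had 0 counts in all leukemic libraries, is not drawn.

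Genes of NF-κB signalling, which induces several of these chemokines, rose in 4 of 18 tested and fell in 0, a called share of 22.2%, close to the 17.9% over all genes. Their median was 0.42 on the log2 scale. Ier3, an early response gene, rose by 1.38 ± 0.21 (adjusted p = 0.000678) and Il6 by 2.08 ± 0.33 (adjusted p = 0.000960). Tnfaip3 and Nfkbia, feedback inhibitors of the pathway, rose by 1.69 ± 0.30 (adjusted p = 0.00195) and 0.63 ± 0.16 (adjusted p = 0.0145). Tnf and Il1b, cytokines that act through the pathway, had log2 fold changes of -0.37 and 0.36 and did not pass. The Il1b value pools opposite signs, 1.40 ± 0.40 in females (adjusted p = 0.0513) and -0.67 ± 0.39 in males (adjusted p = 0.366). Its female effect minus its male effect was 2.07 ± 0.56 by edgeR (unadjusted p = 0.00309, adjusted p = 0.815). Without male non-leukemic replicate 3 the number of the 18 genes rising was 9, where 19.6% of all genes were called in either direction.

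Genes induced by interferon gamma rose in 17 of 18 tested and fell in 0, with a median of 1.57. The called share was 94.4%, against 17.9% over all genes. Iigp1, Gbp2, Gbp3 and Igtp had the lowest p. Ifng itself, which T and NK cells make, had 10.6 to 42.1 CPM in leukemic libraries and 1.25 to 4.11 CPM in non-leukemic libraries, a log2 fold change of 3.26 ± 0.43 (adjusted p = 0.000227). Ciita, the regulator of MHC class II genes, did not pass over all libraries (0.24, adjusted p = 0.673). When male non-leukemic replicate 3 was left out, it passed (0.72, adjusted p = 0.0110).

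Markers of some other cell types also differed between leukemic and non-leukemic libraries, while those of B and plasma cells did not pass. Over all genes tested, the share called in either direction was 17.9%. All 20 T and NK cell markers rose, and their summed level was 1707 to 3481 CPM in leukemic libraries and 363 to 707 CPM in non-leukemic libraries. Gzmb, Cd5, Cd8a and Cd247 had the lowest p, with log2 fold changes of 3.53, 3.98, 2.86 and 3.56. The sum was highest in male leukemic replicate 2 (3481 CPM), then in female leukemic replicate 1 (3297 CPM), where Ccl3, Ccl4, Ccl5 and Ccl8 were highest. It was 707 CPM in female non-leukemic replicate 1, the non-leukemic library with the most Ccl5 and Ccl8. Male leukemic replicate 2 was highest for none of these 4 genes. It came next after female leukemic replicate 1 for Ccl3 (174 CPM), Ccl4 (262 CPM) and Ccl5 (144.5 CPM). For Ccl8 it had 13.9 CPM, below male leukemic replicates 1 and 3 (17.5 and 20.96 CPM). Male non-leukemic replicate 2, the non-leukemic library with the most Ccl3 and Ccl4, had a sum of 585 CPM. Female leukemic replicate 1 also had the highest leukemic sums of monocyte, neutrophil, erythroid, and B and plasma cell markers, and of the interferon gamma list. The part of T and NK cells in the rise of Ccl3, Ccl4, Ccl5 and Ccl8 was not tested.

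Marrow macrophage markers fell in 12 of 19 tested and rose in 0, a called share of 63.2%. Their sums were 629 to 1404 CPM in leukemic libraries and 1901 to 5956 CPM in non-leukemic libraries. Slc40a1, Fcna, Cd163 and Mrc1 fell by 1.99, 2.73, 2.31 and 1.98 on the log2 scale. The highest sum, 5956 CPM, was that of male non-leukemic replicate 3, the non-leukemic library with the most Ccl6, Ccl7, Ccl9 and Ccl12. That library also had the highest non-leukemic sums of monocyte, dendritic cell, neutrophil and eosinophil markers, and of the interferon gamma and NF-κB lists. Monocyte markers rose in 0 and fell in 1 (Chil3) of 9, a called share of 11.1%, below the 17.9% over all genes. Their sums were 1896 to 3552 CPM in leukemic libraries and 2214 to 4538 CPM in non-leukemic libraries. Dendritic cell markers rose in 4 and fell in 3 of 12, a called share of 58.3%. Their sums were 353 to 530 CPM in leukemic libraries and 350 to 574 CPM in non-leukemic libraries.

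Basophil and mast cell markers rose in 8 of 11 tested, a called share of 72.7%, against 17.9% over all genes. Their sums were 9640 to 34630 CPM in leukemic libraries and 3921 to 8322 CPM in non-leukemic libraries. In that list Mcpt4 and Tpsab1, mast cell proteases, had 0 counts in 11 of the 12 libraries each; Mcpt4 had 6 counts in male leukemic replicate 1 and Tpsab1 had 28 in female leukemic replicate 1. Markers of progenitors and of the leukemia model rose in 6 of 12, a called share of 50%. Their sums were 1009 to 1476 CPM in leukemic libraries and 667 to 964 CPM in non-leukemic libraries. Neutrophil markers fell in 9 of 16, a called share of 56.2%. Their sums were 13640 to 29080 CPM in leukemic libraries and 29680 to 68960 CPM in non-leukemic libraries.

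All 13 erythroid markers tested fell, with sums of 784 to 1506 CPM in leukemic libraries and 15330 to 20130 CPM in non-leukemic libraries. Eosinophil markers fell in 2 of 10, Ccr3 and Ear2, a called share of 20%, close to the 17.9% over all genes. Their sums were 2039 to 4080 CPM in leukemic libraries and 2255 to 3966 CPM in non-leukemic libraries. B and plasma cell markers passed in 0 of 12, with sums of 1112 to 11220 CPM in leukemic libraries, highest in female leukemic replicate 1, and 1217 to 3163 CPM in non-leukemic libraries. The part of these cell types in the chemokine results was not tested.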

How the data were processed

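The 12 RNA sequencing libraries were put into groups by the sex and the condition that their titles give. Per the labels' protocols, 1 ng of RNA was amplified with a SMARTer v4 kit and made into Nextera XT libraries, which keep neither strand nor molecular identifiers. The deposited values are the authors' raw counts per gene. Per the submitters' processing notes, the build was GRCm39 and the tools were STAR 2.7.9a, featureCounts of Subread 2.0.1, fastp 0.23.1, bcl2fastq 2.19.1, R 4.0.2 and DESeq2 1.28.1, with no roles stated; annotation and counting settings are not given in the sources used here.

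CPM were computed from column totals, with a prior count of 2 on the log2 scale. Genes were filtered with filterByExpr over the 4 groups (15758 of 56832 kept), scaled by TMM (the trimmed mean of M values), and tested with the two-sided quasi-likelihood F test of edgeR 4.0.16 in R 4.3.3 (robust), with sex as a term. Effects within a sex and the interaction came from a model of 4 group means. Adjustment was by Benjamini and Hochberg over all genes tested, with adjusted p under 0.05 counted as passed. SE was the log2 fold change over the square root of F. Alternatives were other scalings and filters, DESeq2 1.42.0, limma-voom (limma 3.58.1), a 1.5-fold minimum, the replicate block, no sex term, and libraries left out. The fits were tested on simulated data. No 2 libraries of the same group were copies (lowest chi-square per degree of freedom 22.6), and pairs across groups were not checked.

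Named were all 9 members, receptors and other CC chemokines that passed, up to 4 genes per other list by p, gate genes, and the 3 profiles most like each called member; other list genes are named after their values were seen. Members and lists were chosen with earlier results of these data known. Transcript lengths came from GENCODE M21 and promoters from RefSeq (both GRCm38), which differ from the build of the counts; names were matched by symbol, and Ahsp of the erythroid list was not analysed here. The receptor and monocyte lists are each 1 gene shorter than first drawn up, as that gene is not reported here.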

Additional observations from a re-analysis of the deposited data

Results flagged for a closer look

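Of 18 checks, each of 1 member in the 6 libraries of 1 condition, 5 had a library far from the others. The cut flags about 1 in 20 checks of normally distributed values. CPM need not be so distributed, and the checks share libraries, so the 5 cannot be set against that rate. Female leukemic replicate 1 had 329.9 CPM of Ccl5, against 96.0 to 144.5 CPM in the other leukemic libraries. The same library had 53.4 CPM of Ccl8, against 9.33 to 20.96 CPM in the others. It also had 5.76 CPM of Ccl12, against 1.01 to 2.79 CPM. Female non-leukemic replicate 1 had 124 CPM of Ccl5, against 24.9 to 50.9 CPM in the other non-leukemic libraries. Male non-leukemic replicate 3 had 5.63 CPM of Ccl12, against 0.338 to 1.30 CPM in the other non-leukemic libraries.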

How the results depend on the processing

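Over all 12 libraries, 4 members were called higher under every alternative but 3. Against a minimum change of 1.5-fold 3 passed, and 6 passed without male non-leukemic replicate 3 and without that library and female leukemic replicate 1 together. The count over all genes was 2822, and moved to 978 with the 1.5-fold minimum and to 4717 without both libraries; it was 2108 to 3910 when each library was left out in turn. Column totals without scaling gave 1673 genes higher and 1120 lower, against 1373 and 1449, and moved the median over all genes in males to 0.12 on the log2 scale. DESeq2 called 6 members in females, against 3. Over all genes it called 2359 in females (15%), against 605 higher and 723 lower. In males, leaving out a library gave 0 to 4 members, where 3.15% to 12.9% of all genes were called. The count was 0 without male leukemic replicate 2 and 1 without male leukemic replicate 3 or male non-leukemic replicate 1 or 2.

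Directions turned only in members that did not pass. On the log2 scale, Ccl2 was -0.10 with limma-voom, -0.13 without the sex term, -0.15 without both libraries and -0.22 to 0.33 with a library left out, and Ccl6 was -0.013 to 0.36. In males Ccl9 was 0.11 with column totals, 0.045 with limma-voom, 0.43 without both libraries and -0.30 to 0.40 with a library left out. Ccl6 in males was 0.16 without both libraries and -0.53 to 0.14 with a library left out, and Ccl12 in males was 0.52 with limma-voom, 1.41 without both libraries and -0.70 to 1.38 with a library left out. Calls of Ccl8 within a sex also ended with limma-voom (adjusted p = 0.0883 in females and 0.104 in males) and without a low-count filter (0.0939 and 0.104). A filter of 5 CPM in 3 libraries left 2 of the other CC chemokines called, Ccl22 and Ccl24. Under it Ccl1 and Ccl17, with leukemic medians of 3.68 and 3.65 CPM, were removed and not tested. The 1.5-fold minimum left 1 receptor higher and 2 lower. Apart from the genes removed by that filter, the cause of these shifts was not tested.

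Replicate numbers did not pair the samples: over 18 same-numbered pairs the correlation of deviations was -0.109 to 0.079. With the number as a replicate block, 4 members and 2509 genes passed, 3 members in females, 3 in males and 0 in the interaction. Depth bears on Ccl7, which had 3 counts in 1 library.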

Other observations

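Some genes were too low to test, and 1 library held much of each total. Ackr2, an atypical receptor that removes inflammatory CC chemokines, had 49 counts in leukemic libraries, of which 29 were in male leukemic replicate 3, and 1 count in non-leukemic libraries. Without that library the leukemic total was 20. Ccr1l1 had 6 counts in leukemic libraries, all in male leukemic replicate 2, and 16 counts in non-leukemic libraries, of which 11 were in male non-leukemic replicate 3. Ccl11, an eosinophil attractant in the block of Ccl2, had 5 counts in leukemic libraries, all in male leukemic replicate 3, and 0 in non-leukemic libraries.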
